A study of Homo sapiens with 9 samples.

Results

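The genes described here are 9 genes of steroid hormone signalling: the receptors ESR1, ESR2, PGR, NR3C1 and ESRRA, the coactivators NCOA1, NCOA2 and NCOA3, and the estrogen target GREB1. They were taken by name, because the targeted gene, PRMT2, is a reported coactivator of steroid receptors, and all 9 were found by symbol among the 60605 genes of the deposited files. RNA from 9 libraries of KG-1a, a human acute myeloid leukaemia line, was sequenced. Of these, 3 came from cells with wild-type PRMT2 (WT), 3 from PRMT2 knockout clone 1 and 3 from PRMT2 knockout clone 2, each clone being a single CRISPR/Cas9-edited line that was given no drug. No hormone treatment is named in the labels, and all groups grew in medium with fetal bovine serum.

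Steroid receptors are transcription factors that bind a hormone and then sit on response elements in DNA. ESR1 and ESR2 encode estrogen receptors alpha and beta, PGR the progesterone receptor and NR3C1 the glucocorticoid receptor, which mediates the killing of many lymphoid leukaemia cells by glucocorticoids. ESRRA encodes an orphan receptor related to the estrogen receptors that has no known steroid ligand and that drives mitochondrial genes. The p160 proteins NCOA1, NCOA2 and NCOA3 dock on hormone-bound receptors and bring in acetyltransferases and arginine methyltransferases such as CARM1. GREB1 is a classic early target of estrogen receptor alpha in breast cells and a chromatin-bound partner of that receptor.

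The libraries held 28006342 to 43149410 counted read pairs. A floor of 3 counts was 0.0695 to 0.107 CPM per library, where CPM scales a gene's counts to the library's size. PRMT2 averaged 39.4 ± 0.393 CPM in WT, 20.7 ± 0.544 in clone 1 and 21.2 ± 0.153 in clone 2; here and below, means carry the SD over n = 3 libraries. Of 8 genes listed as KG-1a markers, CD34 was at 625.6 CPM in WT and 6 exceeded 1 CPM, whereas MPO and CD33 stayed below that. Of the breast epithelial markers, EPCAM, KRT19 and CDH1 had 0 counts in WT, while GATA3 and FOXA1, transcription factors that act with estrogen receptor alpha in breast cells, were at 48.0 and 2.23 CPM. The summed level of the 7 breast markers ran from 49.4 to 52.2 CPM in WT, 43.3 to 48.7 in clone 1 and 37.5 to 40.5 in clone 2. GATA3 made up most of that sum, while FOXA1 was higher in clone 2 (log2 0.41, adjusted p = 0.0471, edgeR). KRT8 had 11 counts in WT, 34 in clone 1 and 27 in clone 2, or 0.0948, 0.369 and 0.227 CPM. It passed the filter on low counts through clone 1, where it was highest, so its test is not read here. Of 6 fibroblast markers, COL3A1 alone exceeded 1 CPM, and it was higher in clone 1 (log2 1.30, adjusted p = 1.19e-07, edgeR). The fibroblast sum was 1.63 to 2.65 CPM in WT, 4.17 to 4.61 in clone 1 and 2.16 to 3.63 in clone 2. Among the KG-1a markers, KIT and SPI1 were 3.28-fold and 2.33-fold higher in clone 2. The part of these markers in the results below was not tested. KO clone 1 replicate 1 stood apart in its share of read pairs that mapped to several places, 13.3%, against 3.86% to 4.51% elsewhere. Whether replicates came from separate cultures is not stated in the labels, so a p-value here reflects the spread among these libraries, which may be technical, and does not cover the spread between clones.

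KG-1a cells expressed the coactivators, the glucocorticoid receptor and ESRRA, and little or none of the estrogen and progesterone receptors. Per exon length, on the TPM scale of transcripts, NCOA2 was the highest member in WT at 129.2 ± 2.52. It was followed by ESRRA at 58.2 ± 3.41, NCOA1 at 49.9 ± 1.73 and NCOA3 at 46.6 ± 2.30, where the ranges of NCOA1 and NCOA3 overlapped. NR3C1 was at 22.8 ± 0.410 TPM. Far below came GREB1 at 0.391 ± 0.0905 and ESR1 at 0.327 ± 0.0539 TPM, whose ranges overlapped. ESR2 at 0.0430 ± 0.0169 TPM and PGR at 0.0161 ± 0.0139 TPM came last. In clone 1 the order was the same, the ranges of ESRRA and NCOA1 and of NCOA1 and NCOA3 overlapped, and so did those of ESR2 and PGR, with GREB1 at 2.90 ± 0.298 TPM clear of ESR1. In clone 2, GREB1 at 0.143 ± 0.0237 TPM fell below ESR1, and their ranges did not overlap. In bulk RNA, fewer expressing cells and less RNA per cell cannot be told apart.

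**Figure D1:**
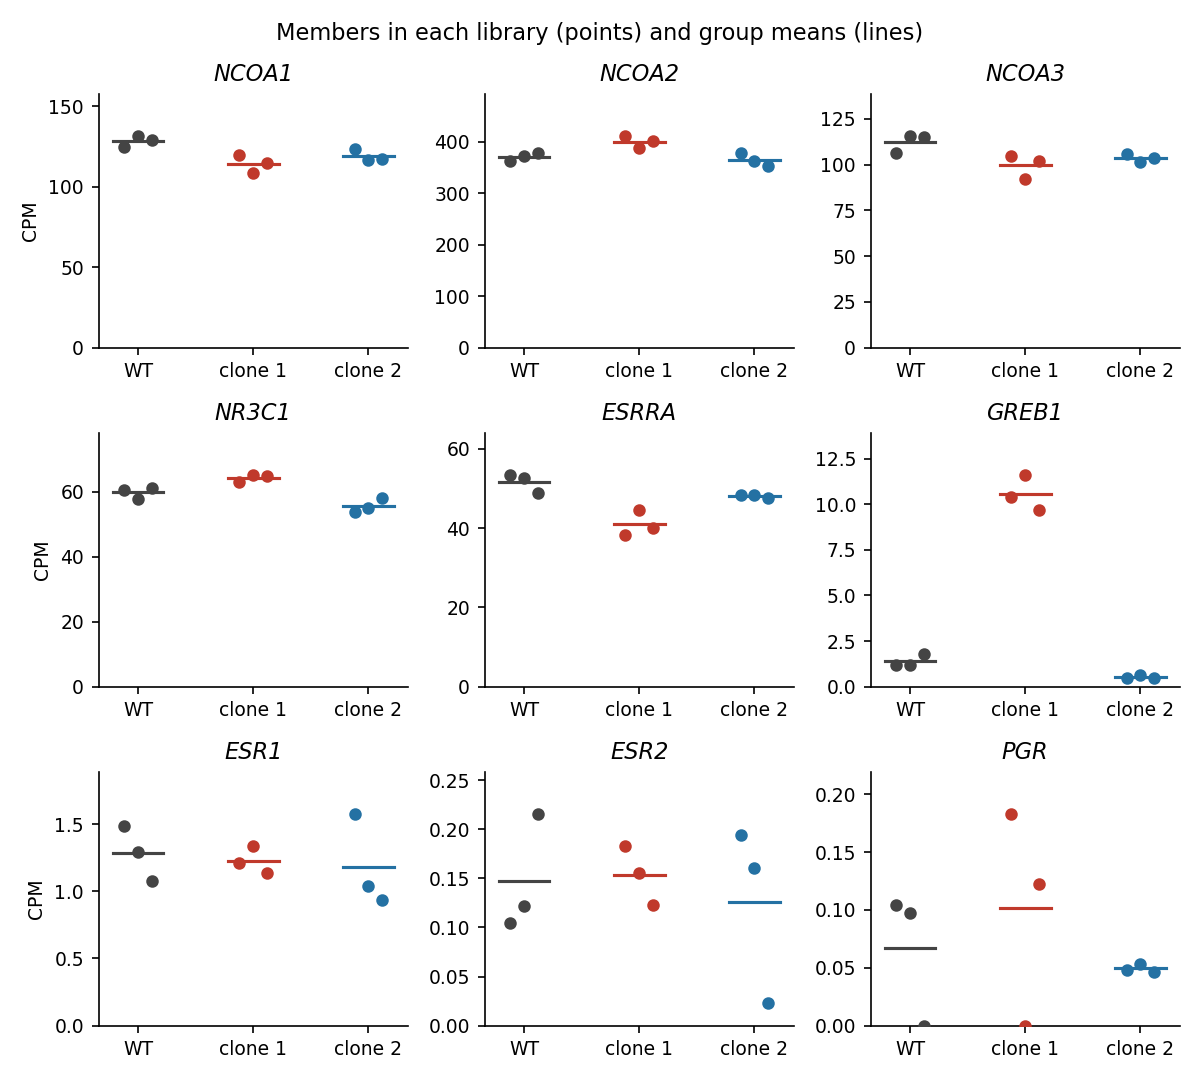
Level of each of the 9 members in CPM (vertical axes from 0, own scale per panel) in WT, KO clone 1 and KO clone 2, with 1 point per library and a line at each group mean. GREB1 rises from 1.39 CPM in WT to 10.6 CPM in clone 1 and is at 0.514 CPM in clone 2, whereas the coactivators, NR3C1 and ESRRA move by small amounts and ESR2 and PGR lie near the floor.

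Of the 9 members, 7 passed the filter on low counts and were tested, and ESR2 and PGR were not. In clone 1 against WT, 6 of the 7 passed an adjusted p of 0.05 with edgeR's quasi-likelihood test: GREB1, NR3C1 and NCOA2 were higher, and ESRRA, NCOA1 and NCOA3 were lower. Over all 20655 genes tested, 36.2% passed in that comparison. In clone 2 against WT, 4 of the 7 passed and all were lower: GREB1, NR3C1, NCOA1 and NCOA3. Of all genes, 30.5% passed there, and 16.1% of all genes passed and were lower. In the mean of both clones 4 members passed, against 35.3% of all genes. When a log2 fold change of 1 or more in size was also demanded, GREB1 was the sole member called, in both clones, against 7.58% of all genes in clone 1 and 5.96% in clone 2. The clone 2 count was 2 with DESeq2, 2 without WT replicate 2 or without clone 2 replicate 3, and 1 without clone 2 replicate 2, so its share against the background depends on these choices. The 6 members other than GREB1 moved by at most 0.33 on the log2 scale.

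**Figure D2:**
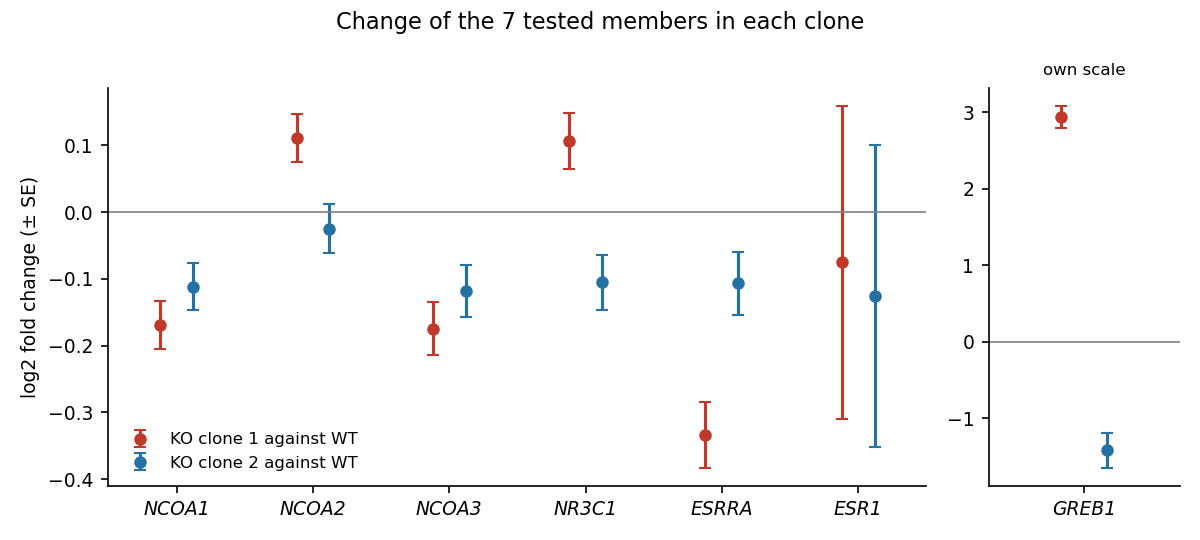
Log2 fold change against WT (points) with its standard error (bars) for the 7 tested members in KO clone 1 and KO clone 2, with GREB1 on its own vertical scale. NCOA1 and NCOA3 lie below 0 in both clones, NR3C1 lies at 0.11 in clone 1 and -0.11 in clone 2, and GREB1 lies at 2.94 and -1.42.

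The upstream sequences of NCOA1, NCOA3 and ESRRA are shown because these 3 genes were lower in clone 1 and have an entry in the RefSeq promoter table (GRCh38.p14). They end at the base before the annotated start, 5′ to 3′, with matches to the GC box GGGCGG on either strand in capitals.
NCOA1 (chr2:24491004-24491253, plus strand): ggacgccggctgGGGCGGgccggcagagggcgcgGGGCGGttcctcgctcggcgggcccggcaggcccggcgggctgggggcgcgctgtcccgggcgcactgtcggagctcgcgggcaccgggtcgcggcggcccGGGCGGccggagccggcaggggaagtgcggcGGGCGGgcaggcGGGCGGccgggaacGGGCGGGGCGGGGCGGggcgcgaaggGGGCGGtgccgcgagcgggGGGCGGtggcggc
NCOA3 (chr20:47501637-47501886, plus strand): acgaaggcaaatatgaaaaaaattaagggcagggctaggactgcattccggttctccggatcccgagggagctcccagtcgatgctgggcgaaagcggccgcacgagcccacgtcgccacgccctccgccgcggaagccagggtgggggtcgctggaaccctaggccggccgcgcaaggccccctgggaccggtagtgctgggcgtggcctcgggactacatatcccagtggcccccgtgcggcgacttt
ESRRA (chr11:64305274-64305496, plus strand): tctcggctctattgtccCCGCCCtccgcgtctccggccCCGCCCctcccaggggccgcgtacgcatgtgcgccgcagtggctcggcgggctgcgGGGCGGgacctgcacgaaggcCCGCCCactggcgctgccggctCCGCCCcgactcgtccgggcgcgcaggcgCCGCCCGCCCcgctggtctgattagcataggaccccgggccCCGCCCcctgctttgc
The NCOA1 stretch held 10 GC boxes and the ESRRA stretch 8, some of them overlapping, and the NCOA3 stretch held 0. Other windows of NCOA1, not shown, held 3 and 0. Over all 35116 windows of the table, 45.0% held at least 1 GC box in 300 bases, which is longer than the stretches shown. Of the 9 members, 7 had a window, 26 windows in all, and GREB1 and NCOA2 had none. A GC box was present in 15 of the 26 windows. None of the 26 held the palindromic estrogen response element, GGTCA and TGACC with 3 bases of any kind between them, which 0.057% of all windows held, nor the ERR element TCAAGGTCA, which 0.353% held. The core GGTCA, which both of these contain, was found on either strand in 7 of the 26 windows and in 37.4% of all. A match is a description of the letters in the window only.

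GREB1 went in opposite directions in the 2 knockout clones. GREB1 (ENSG00000196208, GRCh38 chromosome 2, 11482341 to 11642788, plus strand) was at 1.20, 1.19 and 1.79 CPM in the WT libraries. In clone 1 it was at 10.4, 11.6 and 9.70 CPM, and in clone 2 at 0.461, 0.614 and 0.468 CPM. No group overlapped another: all clone 1 libraries lay above WT and all clone 2 libraries lay below it. The counts behind these levels were 46, 49 and 58 in WT, 284, 374 and 316 in clone 1, and 19, 23 and 20 in clone 2, so the lower level rests on few reads but not on a single library. In clone 1 GREB1 rose by 2.94 on the log2 scale (SE 0.147, adjusted p = 2.54e-20, edgeR), or 7.67-fold. In clone 2 it fell by 1.42 (SE 0.223, adjusted p = 1.83e-06, edgeR), or 2.68-fold.

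The difference between the clones was itself tested. GREB1 was at -4.36 on the log2 scale in clone 2 against clone 1 (SE 0.171, adjusted p = 4.02e-23, edgeR), 20.6-fold lower. Of the 5355 genes that passed the adjusted p in that comparison, 25.9% of all tested, GREB1 ranked 35 by the size of the difference, and 2.82% of all genes also met the fold minimum. Without KO clone 1 replicate 1, the library with many multiply mapped pairs, GREB1 was at 2.95 in clone 1 and -1.42 in clone 2. Over all alternatives GREB1 lay between 2.84 and 3.14 in clone 1 and between -1.56 and -1.22 in clone 2.

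A single number for "knockout against wild type" does not describe GREB1. The contrast of the mean of both clones with WT gave 0.76 (SE 0.170, adjusted p = 0.000362, edgeR), of the sign of clone 1. With both clones treated as 1 group, an alternative chosen after seeing the data, it was 1.97 (adjusted p = 0.384, edgeR), and 21.2% of all genes passed. In the authors' deposited table, which compares both clones together with WT, GREB1 is at 1.99 with an adjusted p of 0.268. GREB1 is therefore absent from the calls of a pooled comparison although it was called in each clone.

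Of the genes beside GREB1, E2F6 did not pass the test in either clone, and NTSR2 could not be tested. E2F6, a repressive E2F factor and the nearest protein-coding gene on one side, lies 16164 bases from GREB1. It was at 27.65 ± 1.02 CPM in WT, 28.5 ± 0.797 in clone 1 and 29.6 ± 1.08 in clone 2, with an adjusted p of 0.601 and 0.184 (edgeR). NTSR2, a neurotensin receptor gene 15390 bases away on the other side, had 0 counts in every library. On the strand opposite to GREB1 there were 7 counts in all libraries together, against 1189 on its own strand.

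Among 11401 protein-coding genes with a mean of at least 1 CPM, 3 were closest to GREB1 in their change, by the root-mean-square difference of log2 CPM over the 9 libraries after centring each gene on WT. LDLRAD2 came first with a difference of 0.45. It was at 0.508 ± 0.0473 CPM in WT, 4.29 ± 0.712 in clone 1 and 0.234 ± 0.110 in clone 2. HSPB1, a small heat shock protein, followed at 0.63, with 4.60 ± 0.990, 17.4 ± 0.323 and 1.55 ± 0.166 CPM. The decoy death receptor gene TNFRSF10D came next at 0.75, with 0.627 ± 0.0243, 2.38 ± 0.155 and 0.334 ± 0.124 CPM. This measure chose the genes, so their pattern is a description. The cut of 1 CPM was on the mean over the 9 libraries, and LDLRAD2 and TNFRSF10D were above 1 CPM in clone 1 only. The candidates therefore included low genes that rise in a clone.

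**Figure D3:**
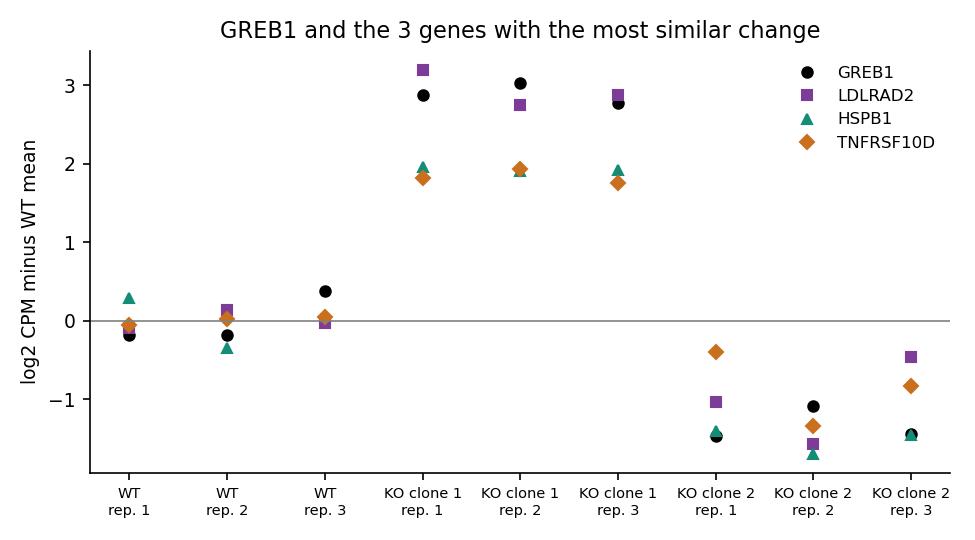
Log2 CPM minus the gene's own WT mean (vertical axis) for GREB1 and the 3 genes with the most similar change in each of the 9 libraries (horizontal axis). All 4 genes lie above WT in the 3 clone 1 libraries and below it in the 3 clone 2 libraries, with the largest rises in GREB1 and LDLRAD2.

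ESRRA was lower in clone 1, and clone 2 lay between clone 1 and WT. ESRRA (ENSG00000173153, chromosome 11, 64305497 to 64316743, plus strand) was at 53.5, 52.7 and 48.9 CPM in WT. It was at 38.3, 44.6 and 40.1 CPM in clone 1 and at 48.3, 48.3 and 47.6 CPM in clone 2. All clone 1 libraries lay below all other libraries, and clone 2 lay just under the lowest WT library. Against WT, ESRRA was at -0.33 on the log2 scale in clone 1 (SE 0.049, adjusted p = 3.86e-07, edgeR) and -0.11 in clone 2 (SE 0.047, adjusted p = 0.0861, edgeR). The clones differed by 0.23 (SE 0.049, adjusted p = 0.00038, edgeR), higher in clone 2. The end of ESRRA overlaps TRMT112 on the other strand, and TRMT112 was at 61.9, 62.2 and 60.9 CPM in the group means. The pseudogene copies of ESRRA, ESRRAP1 and ESRRAP2, were at most at 0.165 CPM in any group mean, though reads that fit both a copy and ESRRA would not have been counted.

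Genes that ESRRA is known to drive were examined next. This list and those below were chosen with earlier results of these data known, so their counts and medians are descriptions. Of 12 listed mitochondrial and energy genes, 10 were tested. In clone 1, 1 was higher and 2 were lower, 3 of 10 against 36.2% of all genes, with a median log2 fold change of 0.00 as for all genes. In clone 2, 2 were higher and 0 were lower with edgeR, 2 of 10 against 30.5% of all genes, with a median of 0.03 against 0.00 for all genes. Neither share stood above that of all genes. IDH3A, a subunit of isocitrate dehydrogenase, averaged 52.2 ± 1.33 CPM in WT. It fell to 43.2 ± 2.44 in clone 1 (adjusted p = 9.26e-06, edgeR) and was at 52.2 ± 3.00 in clone 2. The mitofusin MFN2 went from 146.4 ± 5.19 to 154.4 ± 4.30 and 172.7 ± 3.84 CPM, with a change of 0.24 in clone 2 (adjusted p = 7.44e-08, edgeR).

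NR3C1, the most expressed ligand-bound steroid receptor of the set, moved 1.08-fold up in clone 1 and 1.08-fold down in clone 2. NR3C1 (ENSG00000113580, chromosome 5, 143277931 to 143435512, minus strand) was at 60.7, 57.9 and 61.2 CPM in WT. It was at 63.0, 65.3 and 65.1 CPM in clone 1 and 53.9, 55.0 and 58.1 CPM in clone 2. Clone 1 lay above WT, and clone 2 overlapped WT in 1 library. Against WT, NR3C1 differed by 0.11 (log2) in clone 1 (SE 0.041, adjusted p = 0.0407, edgeR) and -0.11 in clone 2 (adjusted p = 0.0475, edgeR). Both differences missed the threshold under several alternatives, among them DESeq2, whose adjusted p was 0.0721 and 0.0828. With a library left out, the adjusted p reached 0.169 in clone 1, without WT replicate 2, and 0.164 in clone 2, without clone 2 replicate 1 (edgeR). The difference between the clones, -0.21 (SE 0.041, adjusted p = 0.000101, edgeR), held under every alternative that was run. Next to NR3C1, ARHGAP26 was at 3.72 ± 0.532 CPM in WT, 1.42 ± 0.290 in clone 1 and 1.79 ± 0.168 in clone 2, and was called lower in both.

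Among listed glucocorticoid response genes, more passed lower than higher in each clone, though not always the same genes. Of 24 listed, 18 were tested, and 11 were lower and 2 higher in clone 1 (18.8% and 17.4% of all genes), with a median log2 fold change of -0.49 against 0.00 for all genes. In clone 2, 8 were lower and 4 higher (16.1% and 14.4% of all genes), with a median of -0.26 against 0.00. BCL6, a transcriptional repressor, was at 10.7, 10.4 and 9.83 CPM in WT, 2.45, 2.42 and 2.58 in clone 1, and 3.52, 3.31 and 3.86 in clone 2. Its log2 fold change was -2.05 and -1.53 (adjusted p = 3.59e-18 and 2.73e-15, edgeR). BIRC3, an inhibitor of apoptosis, went from 122.5 ± 4.54 CPM to 58.6 ± 3.07 and 75.7 ± 1.15 CPM, and the nuclease ISG20 from 6.46 ± 0.212 to 3.16 ± 0.214 and 3.32 ± 0.227.

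Within that list, directions differed between genes and clones. CEBPB and DDIT4, named here after their values were seen, passed in opposite directions. They were lower in clone 1 (log2 -0.52 and -0.49, adjusted p = 2.43e-06 and 9.09e-07, edgeR). In clone 2 they were higher (log2 0.24 and 0.17, adjusted p = 0.0146 and 0.0244, edgeR). FKBP5, a widely used marker of glucocorticoid action that is named here after its values were seen, was at 222.6 ± 1.32 CPM in WT and fell to 146.9 ± 4.58 in clone 1 and to 156.7 ± 3.97 in clone 2 (adjusted p = 5.5e-20 and 1.2e-17, edgeR). TSC22D3, which encodes the glucocorticoid-induced leucine zipper, was at 2.61 ± 0.338 CPM in WT, 1.86 ± 0.165 in clone 1 and 0.913 ± 0.0808 in clone 2. The clock gene PER1 was at 7.98, 6.58 and 8.47 CPM in WT, 10.5, 9.68 and 10.4 in clone 1, and 19.4, 18.7 and 19.9 in clone 2. It rose in both, by 0.41 (adjusted p = 0.000298, edgeR) and 1.34 (adjusted p = 6.18e-17, edgeR) on the log2 scale. ERRFI1, a feedback inhibitor of the EGF receptor, went from 2.79 ± 0.231 to 0.783 ± 0.0403 CPM in clone 1, and in clone 2 it was at 2.25 ± 0.343 (adjusted p = 0.154, edgeR).

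NCOA1 and NCOA3 were slightly lower in both clones, and NCOA2 was slightly higher in clone 1. NCOA1 (ENSG00000084676, chromosome 2, 24491254 to 24770702, plus strand) was at 124.9, 131.6 and 128.8 CPM in WT. It was at 119.6, 108.4 and 114.8 CPM in clone 1 and 123.2, 116.3 and 117.2 CPM in clone 2. Every knockout library lay below every WT library, in clone 2 by a small margin. The log2 fold change was -0.17 (SE 0.036, adjusted p = 0.000167, edgeR) in clone 1 and -0.11 (SE 0.035, adjusted p = 0.0126, edgeR) in clone 2.

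NCOA3 (ENSG00000124151, chromosome 20, 47501887 to 47656877, plus strand), amplified in some breast cancers, was at 106.4, 115.7 and 115.0 CPM in WT. It was at 104.6, 92.2 and 102.1 CPM in clone 1 and 105.7, 101.2 and 103.7 CPM in clone 2. The knockout libraries again lay below the WT libraries, with the highest clone 2 library just under the lowest WT library. The log2 fold change was -0.17 (SE 0.040, adjusted p = 0.000585, edgeR) in clone 1 and -0.12 (SE 0.039, adjusted p = 0.0198, edgeR) in clone 2. The clones were not told apart for NCOA1 (0.06, SE 0.036, adjusted p = 0.263, edgeR) or NCOA3 (0.06, SE 0.040, adjusted p = 0.34, edgeR). In clone 2, leaving out WT replicate 2, or clone 2 replicate 2 or 3, left both genes above an adjusted p of 0.05, as did leaving out WT replicate 3 for NCOA3. In those fits the adjusted p was 0.0602 to 0.0787 for NCOA1 and 0.0511 to 0.102 for NCOA3 (edgeR), and DESeq2 gave 0.0505 for NCOA3.

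NCOA2 (ENSG00000140396, chromosome 8, 70109782 to 70403808, minus strand) was at 362.7, 371.6 and 376.9 CPM in WT. It was at 411.1, 388.1 and 400.8 CPM in clone 1 and 378.5, 361.8 and 351.9 CPM in clone 2. Clone 1 lay above WT, and clone 2 overlapped WT. NCOA2 was at 0.11 on the log2 scale in clone 1 (SE 0.036, adjusted p = 0.0135, edgeR; 0.0683 without WT replicate 1) and -0.02 in clone 2 (SE 0.036, adjusted p = 0.674, edgeR). Clone 2 against clone 1 gave -0.14 (SE 0.036, adjusted p = 0.00377, edgeR).

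Among other cofactors many passed the test in clone 1, and none reached the fold minimum against WT. Of 30 further coactivators and associated enzymes, 29 were tested. In clone 1, 9 were higher and 9 lower, 18 of 29 in all against 36.2% of all genes. In clone 2, 6 were higher and 2 lower, against 30.5% of all genes in either direction, and 0 reached the fold minimum in either clone with edgeR. KAT2B, an acetyltransferase, was at 99.4 ± 0.663 CPM in WT, 99.0 ± 1.87 in clone 1 and 74.2 ± 0.925 in clone 2, where it fell by 0.42 (adjusted p = 1.66e-13, edgeR). KMT2D, a methyltransferase of enhancer histones, rose in both, from 507.9 ± 13.1 CPM to 577.9 ± 24.6 and 616.5 ± 12.9. Of 12 corepressors, all tested, 5 were higher and 0 lower in clone 1 with edgeR, and 5 were higher and 2 lower in clone 2. Of all genes, 17.4% were higher and 18.8% lower in clone 1, and 14.4% and 16.1% in clone 2. TBL1X, a subunit of the NCOR complex that is named here after its values were seen, had the largest change of the corepressors. It was at 21.3 CPM in WT, 26.3 in clone 1 and 12.6 in clone 2, or 0.31 and -0.76 on the log2 scale (adjusted p = 0.000245 and 4.76e-12, edgeR). Between the clones TBL1X was at -1.06 (adjusted p = 5.67e-16, edgeR). NRIP1, a corepressor that is itself an estrogen target, went from 246.0 ± 6.83 CPM to 304.2 ± 6.01 and 273.2 ± 0.395. PHB2, which represses estrogen receptor activity, went from 129.6 ± 5.60 to 145.7 ± 4.36 and 151.3 ± 2.05.

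The chaperones that hold steroid receptors ready for hormone differed between the clones. Of 14 tested, 8 were lower and 1 higher in clone 1 against WT, and 1 was lower and 7 higher in clone 2. Of all genes, 18.8% were lower and 17.4% higher in clone 1, and 16.1% and 14.4% in clone 2. In clone 2 against clone 1, 10 were higher and 0 lower with edgeR, against 13.4% and 12.6% of all genes, and the median was 0.21 against 0.00 for all genes. The sizes were small, and 0 reached the fold minimum. FKBP4, a co-chaperone of steroid receptors, fell in both clones, from 274.3 ± 5.16 CPM in WT to 245.2 ± 2.27 and 244.0 ± 2.06. DNAJB1, a heat shock co-chaperone, rose in both, from 80.9 ± 0.468 CPM to 90.4 ± 3.06 and 91.6 ± 3.18.

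Among other receptors and steroid-binding membrane proteins, levels ranged widely. The orphan receptor ESRRG was at most at 0.0178 CPM in any group mean. NR3C2, the mineralocorticoid receptor, averaged 1.10 ± 0.400 CPM in WT, and ESRRB, another orphan receptor, 1.29 ± 0.0944. PGRMC2, a membrane protein related to PGRMC1, was at 47.5 CPM in WT and passed in neither clone. Of 9 listed, 6 were tested, and 2 passed in clone 1, both lower, and 0 in clone 2 with edgeR, against 36.2% and 30.5% of all genes, while 2 passed in the mean of both clones. The 2 in clone 1 were PGRMC1, a haem-binding membrane protein (37.3 ± 1.20 CPM in WT, 32.7 ± 1.91 in clone 1 and 34.96 ± 0.700 in clone 2), and the related NENF (14.5 ± 1.02, 10.5 ± 0.675 and 12.7 ± 0.482 CPM). Of 27 listed genes of steroid synthesis and turnover, 15 were tested, and CYP11A1, CYP17A1 and CYP19A1 did not pass the filter. In clone 1, 3 were higher and 6 lower, against 17.4% and 18.8% of all genes. In clone 2, 1 was higher and 2 lower, against 14.4% and 16.1% of all genes. STAR, which carries cholesterol into mitochondria, averaged 0.501 ± 0.120 CPM in WT, 0.199 ± 0.0926 in clone 1 and 0.373 ± 0.0814 in clone 2. It was called lower in clone 1 (adjusted p = 0.0164, edgeR), on 57 counts in WT and 18 in clone 1. AKR1C3, named here after its values were seen, was at 23.15 ± 1.53 CPM in WT. It was lower in both clones, at 12.2 ± 1.10 and 13.6 ± 0.654 CPM (adjusted p = 1.5e-13 and 1.33e-11, edgeR).

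Estrogen receptor alpha RNA was at a low level, and on its own strand no difference between groups passed the test. ESR1 (ENSG00000091831, chromosome 6, 151656691 to 152129619, plus strand) was at 1.49, 1.29 and 1.08 CPM in WT, 1.21, 1.33 and 1.14 in clone 1, and 1.58, 1.04 and 0.935 in clone 2. The groups overlapped throughout. The log2 fold change was -0.08 (SE 0.235, adjusted p = 0.848, edgeR) in clone 1 and -0.13 (SE 0.226, adjusted p = 0.742, edgeR) in clone 2, so differences of this size were not detectable at this depth. On the opposite strand of the same exons there were 986 counts in all libraries, against 402 on the gene's own strand, or 71.0% of the total. Counting without regard to strand gave 1388, the sum of both. In clone 2 against clone 1, ESR1 was at -0.38 disregarding strand (adjusted p = 0.0299, edgeR) and its opposite strand at -0.52 (adjusted p = 0.0181, edgeR). SYNE1, which overlaps the end of ESR1 on the other strand, was at 105.7 ± 5.11, 122.0 ± 1.23 and 92.4 ± 1.51 CPM.

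The fall of ESR2 listed in the authors' deposited table lay in reads of the strand opposite to ESR2. ESR2 (ENSG00000140009, chromosome 14, 64084232 to 64338112, minus strand) is listed there at a log2 fold change of -3.25 with an adjusted p of 2.50e-14. For each of the 9 libraries, the counts of that table equal those made disregarding strand. On the gene's own strand, WT had 4, 5 and 7 counts, clone 1 had 5, 5 and 4, and clone 2 had 8, 6 and 1. On the opposite strand, WT had 44, 51 and 36 counts, and all 6 knockout libraries had 0. The own-strand counts overlapped in all groups, while the opposite strand separated WT from both clones without exception.

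Set against a floor of 3 counts over the group, the opposite-strand signal over ESR2 was at least 35.8-fold lower in clone 1. For clone 2 it was at least 47.2-fold lower. Fitted over the 13913 genes with enough counts on that strand, a fit chosen after seeing the data, it had an adjusted p of 1.43e-15 in clone 1 and 1.66e-17 in clone 2 (edgeR), where 9.44% and 8.4% of genes were lower. Without a filter on low counts, own-strand ESR2 had an adjusted p of 1 in clone 1 and 0.915 in clone 2 (edgeR). Disregarding strand, ESR2 was at -3.08 on the log2 scale in clone 1 and -3.37 in clone 2. It passed that filter too through WT alone, so these values are a description. SYNE2, a nuclear envelope gene on the plus strand that overlaps ESR2 (chromosome 14, 63761899 to 64226433), fell in the same libraries. It was at 50.7, 53.9 and 52.2 CPM in WT, 1.06, 0.652 and 0.644 in clone 1, and 0.388, 0.667 and 0.421 in clone 2, a log2 fold change of -6.08 and -6.74 (adjusted p = 2.74e-35 and 1.92e-36, edgeR). Its part in the opposite-strand counts of ESR2 was not tested.

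**Figure D4:**
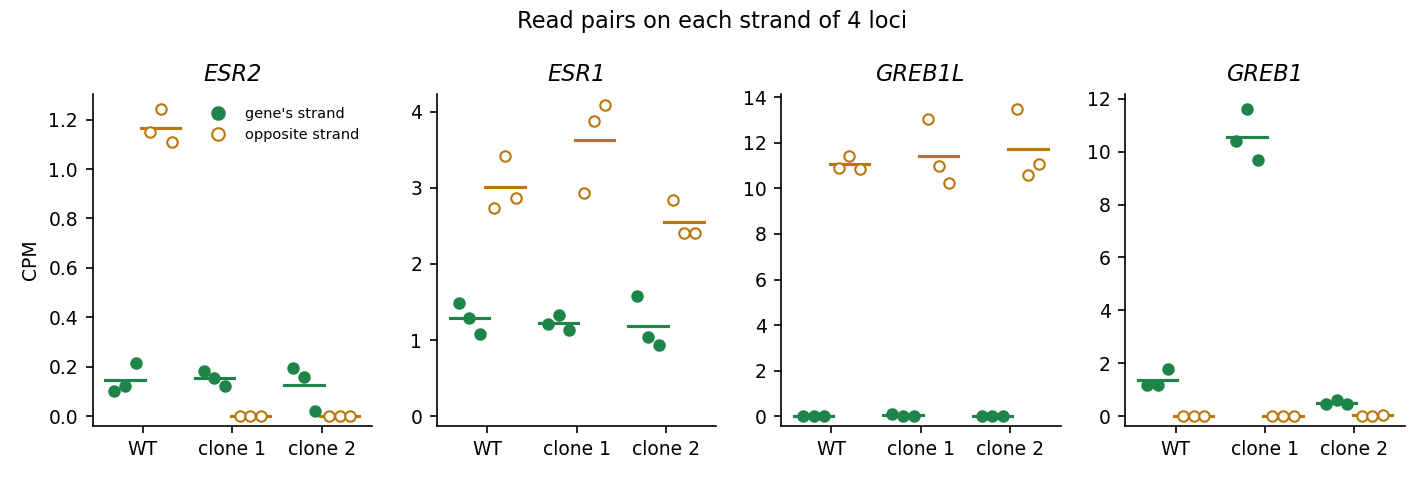
Read pairs in CPM (vertical axes, own scale per panel) on the gene's strand (filled points) and on the opposite strand (open points) of the exons of ESR2, ESR1, GREB1L and GREB1, with 1 point per library and a line at each group mean. Opposite-strand pairs at ESR2 are at 1.17 CPM in WT and 0 in both clones, those at GREB1L make up nearly all pairs of that gene, and GREB1 has almost none.

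PGR (ENSG00000082175, chromosome 11, 101029624 to 101129813, minus strand), itself a target of estrogen receptor alpha, was at or under the floor of 3 counts in 5 of 9 libraries. It had 4, 4 and 0 counts in WT, 5, 0 and 4 in clone 1, and 2, 2 and 2 in clone 2. No difference was detectable at this depth. GREB1L, the paralogue of GREB1 on chromosome 18, had 5 counts on its own strand in all libraries and 3707 on the opposite strand, at 11.0 ± 0.316 CPM in WT, 11.4 ± 1.44 in clone 1 and 11.7 ± 1.55 in clone 2. Its opposite-strand level did not pass the test in either clone (adjusted p = 0.821 and 0.641, edgeR).

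The listed estrogen response genes were in part silent in KG-1a, and a few that were expressed at a low level in WT fell steeply. Of 27 listed, 16 were tested, and TFF1 and TFF3, secreted markers of estrogen response in breast cells, had 0 counts in every library. In clone 1, 8 were lower and 2 higher, against 18.8% and 17.4% of all genes. In clone 2, 6 were lower and 2 higher, against 16.1% and 14.4%. The medians were -0.13 and -0.11, against 0.00 for all genes. The filter on low counts was passed through WT alone by IGFBP4, ADCY9 and CCND1. These genes could add only to the lower side of the counts and medians, which are therefore a description. IGFBP4, which binds insulin-like growth factors, was at 4.75, 3.88 and 4.22 CPM in WT, 0, 0.0621 and 0.0307 in clone 1, and 0.194, 0.214 and 0.421 in clone 2. The adenylate cyclase gene ADCY9 went from 1.30 ± 0.168 CPM to 0.0450 ± 0.0244 in clone 1 and 0 counts in clone 2. STC2, a secreted glycoprotein, went from 1.07 ± 0.133 to 0.100 ± 0.0427 and 0.419 ± 0.212 CPM.

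Further genes of that list differed between the clones. TPD52L1 was at 2.07 ± 0.337 CPM in WT, 0.910 ± 0.0455 in clone 1 and 1.43 ± 0.209 in clone 2, and was lower in both. The immediate early factor EGR3 rose in clone 2, from 1.35 ± 0.106 to 3.43 ± 0.421 CPM (adjusted p = 1.57e-08, edgeR), and was at 1.80 ± 0.142 in clone 1 (adjusted p = 0.0843, edgeR). The cadherin gene CELSR2 fell in clone 2, from 1.37 ± 0.122 to 0.495 ± 0.129 CPM, and was at 1.26 ± 0.267 in clone 1. CCND1 had 41 counts in WT, 12 in clone 1 and 21 in clone 2, or 0.374, 0.135 and 0.171 CPM. It passed the filter on low counts through WT alone, which favours a lower call, so its test is not read here. MYC and RARA, at 703.3 and 75.6 CPM in WT, passed in neither clone. IGFBP4, STC2 and ADCY9 were lower than WT in both clones, whereas GREB1 was higher in clone 1 and lower in clone 2.

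**Figure D5:**
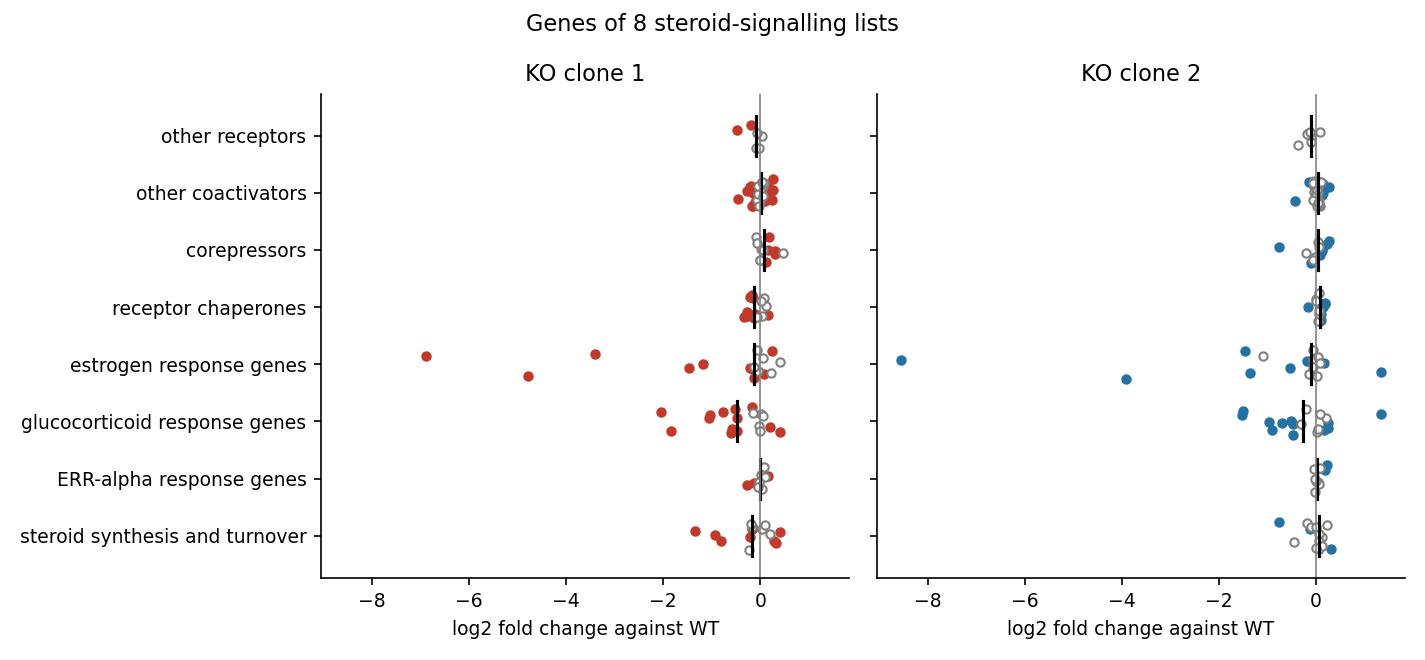
Log2 fold change against WT (horizontal axes) of each tested gene in 8 lists of steroid signalling, in KO clone 1 (left) and KO clone 2 (right), with filled points for genes past an adjusted p of 0.05, open points for the others and black lines at list medians. No gene of the cofactor, chaperone and ERR-alpha lists reaches a log2 fold change of 1 in size with an adjusted p under 0.05, and the estrogen and glucocorticoid response lists hold the largest falls.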

How the data were processed

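Read pairs per gene from 9 libraries were used. The authors deposited raw counts per gene for each library, made with STAR in 2-pass mode on GRCh38, per the series text and the submitters' processing notes, in 3 countings: without regard to strand and for each strand. They also deposited a DESeq2 table with log2 fold changes and p-values for both clones together against WT. Its 9 normalized columns were not used. One strand held 92.03% to 92.31% of stranded counts, and its counting was used. Positions and exon lengths came from GENCODE release 44, which held 60463 of the 60605 identifiers. The version of the annotation used for counting is not given in the sources used here.

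Counts were fitted in R 4.3.3 with edgeR 4.0.16: filterByExpr by group (20655 genes), trimmed mean of M-values scaling, and the robust quasi-likelihood test over all 9 libraries. Contrasts were each clone against WT, their mean against WT, and clone 2 against clone 1, with Benjamini-Hochberg adjustment over all genes. A gene passed at an adjusted p under 0.05 and was called when the absolute log2 fold change was also at least 1. The SE was derived from each log2 fold change and its F statistic and is approximate. CPM divide counts by the scaled library total. TPM divide by exon length. Floors cover counting error only. The fit was tested on simulated data. DESeq2 1.42.0 was an alternative.

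The members and lists were chosen with earlier results of these data known, and the lists hold textbook genes. Named from each list were up to 6 genes called in a clone, by smallest adjusted p in the mean of both clones, or else the 2 with the smallest. The nearest protein-coding gene on each side of a member was looked up. Not every gene so named is reported.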

Additional observations from a re-analysis of the deposited data

Results flagged for a closer look

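The effect of knockout differed between the clones for 4 of the 7 tested members, by the test of clone 2 against clone 1 (edgeR, 25.9% of all genes passed). GREB1 was at -4.36 on the log2 scale and moved in opposite directions from WT. NR3C1 was at -0.21, with a rise in clone 1 and a fall in clone 2 that were each near the threshold. NCOA2 was at -0.14 and ESRRA at 0.23. The last 3 differences are below the fold minimum by a wide margin. Each clone is a single edited line, so a difference between clones and an effect of PRMT2 loss that varies by clone cannot be told apart.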

How the results depend on the processing

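Of 448 values of member fold changes under the alternatives, 402 kept their direction and their side of the threshold, 29 lost it, 2 gained it and 15 changed sign. GREB1 was called in both clones and between the clones under each of them. The sign changes were all in values that had not passed the test. For ESR1 this was 0.18 in clone 1 disregarding strand, and with a library left out ESR1 ran from -0.1774 to 0.0399 in clone 1 (above 0 without WT replicate 1), from -0.3934 to 0.0259 in clone 2 (above 0 without clone 2 replicate 3), from -0.2355 to 0.015 in the mean (above 0 without WT replicate 1), and from -0.3158 to 0.1006 between the clones (above 0 without clone 1 replicate 2, clone 2 replicate 2 or clone 2 replicate 3). For NR3C1 in the mean of both clones they were -0.0043 disregarding strand, -0.0031 with no filter, -0.0004 with the replicate block and -0.0008 with totals that leave out mitochondrial genes. With a library left out, NR3C1 ran there from -0.0247 without WT replicate 2 to 0.016, and was below 0 also without clone 1 replicate 2 or 3 or clone 2 replicate 3. The number of members changed in clone 2 was 2 with DESeq2 and 1 to 4 when a library was left out, and 4 to 6 in clone 1. With both clones as 1 group, 2 members passed instead of 4. Among the lists, 1 of 6 other receptors, 5 of 29 coactivators and 2 of 14 chaperones passed, in place of 2, 14 and 7. Further, 7 of 18 glucocorticoid response, 1 of 10 ERR-alpha response and 3 of 15 steroid enzymes passed, in place of 12, 3 and 8. Of all genes, 21.2% passed in that fit, against 35.3% in the mean of both clones. With 1 knockout group, the spread includes that between clones. With a library left out, other receptors gave 1 to 2 and steroid enzymes 5 to 8. The cause of these shifts was not tested. Replicate numbers did not pair the samples (correlation of deviations between -0.014 and 0.012 for equal numbers), and the replicate block left the number of members at 6 in clone 1, 4 in clone 2, 4 in the mean and 4 between the clones. ESR2 and PGR have no test in the main counting, since depth limits them. The mean contrast uses all groups, so a fit of the compared groups alone was not run for it.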
